A study of Mus musculus with 6 samples.

Results

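The genes examined were 8 members of the interleukin-1 (IL-1) system: the agonists Il1a, Il1b and Il33, the antagonist Il1rn, the receptors Il1r1 and Il1rl1, the shared co-receptor Il1rap and the adaptor Myd88. They were chosen by name, with earlier results of these data known, as were the wider gene lists below. All 8 were found among the 53465 gene identifiers of the table. RNA had been sequenced from EMT6 cells, a mouse mammary carcinoma line, kept in culture for more than 4 weeks with 0.5 μg/ml of an antibody. The antibody was an isotype control in 3 samples (labelled Parental, here P) and anti-PD-L1 in 3 samples (labelled anti-PD-L1 Resistant, here PDR, the study's PTR VITRO cells). All cells grew in RPMI with 5% fetal bovine serum and carried no engineered allele named in the labels. Both groups come from a single line in culture, without T cells or other host cells, so the word resistant in the label names the treated cells and no tumor response was measured in these samples. The labels do not say that replicates were separate cultures, and the study calls replicates technical unless it says otherwise, so the p-values measure the spread between these samples, which may be technical.

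IL-1α and IL-1β bind the receptor IL-1R1, which then recruits the co-receptor IL-1RAcP (the product of Il1rap). The joined receptor tails bind the adaptor MyD88 and pass the signal through IRAK kinases and TRAF6 to NF-κB and MAP kinases. The product of Il1rn, IL-1Ra, occupies IL-1R1 without recruiting the co-receptor, and so blocks both agonists. IL-33 uses another receptor, ST2 (Il1rl1), with the same co-receptor and adaptor. MyD88 also serves most Toll-like receptors. In tumors this system is known for inducing chemokines that draw neutrophils and other myeloid cells.

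Total counts ran from 17757341 (PDR sample 3) to 32426739 (PDR sample 1), and a count of 3, taken as the floor of detection, corresponded to 0.0925 to 0.169 CPM (counts scaled to library size). After removal of low counts 14217 genes remained for testing, and edgeR's quasi-likelihood test called 35 of them at a Benjamini-Hochberg adjusted p under 0.05. The epithelial markers Krt8 and Krt18 and the mesenchymal markers Vim and Fn1 were abundant. The epithelial marker Cdh1 and the mesenchymal marker Cdh2 had a mean count of 0.333 each. Of 7 leukocyte markers, Ptprc and Adgre1 were at 0 in every sample. The list summed to 0.579 to 0.685 CPM in P and 0.337 to 0.524 CPM in PDR, most of it Lyz2. The 3 mast cell markers were at 0 throughout, and the 3 endothelial markers summed to 0.207 to 0.267 CPM in P and 0.176 to 0.224 CPM in PDR. In bulk RNA, a lower level can mean fewer cells of a type or less RNA per cell, and these cannot be told apart.

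The upstream sequences of the antagonist and of both agonists of IL-1R1 are shown because these 3 genes meet at the same receptor and Il1rn was found far above Il1a and Il1b. Each window is the 250 bases before a RefSeq transcript start (build GRCm38.p6), 5′ to 3′ on the gene's strand, with matches to the searched motifs in capitals. RefSeq gives Il1rn 3 starts, all on the plus strand of chromosome 2, of which the most upstream (chr2:24336610-24336859) and the most downstream (chr2:24345121-24345370) are printed. The windows of Il1a (chr2:129309973-129310222) and Il1b (chr2:129371140-129371389) lie on the minus strand of the same chromosome.
Il1rn upstream start: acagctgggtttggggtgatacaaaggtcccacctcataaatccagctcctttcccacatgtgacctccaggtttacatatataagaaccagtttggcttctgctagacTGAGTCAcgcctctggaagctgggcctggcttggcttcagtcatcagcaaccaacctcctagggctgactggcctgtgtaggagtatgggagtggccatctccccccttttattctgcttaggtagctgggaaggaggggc
Il1rn downstream start: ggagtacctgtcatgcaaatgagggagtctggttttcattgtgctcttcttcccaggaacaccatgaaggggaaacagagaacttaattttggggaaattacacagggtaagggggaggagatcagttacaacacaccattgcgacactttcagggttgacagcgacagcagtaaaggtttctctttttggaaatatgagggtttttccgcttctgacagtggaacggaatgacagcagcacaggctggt
Il1a: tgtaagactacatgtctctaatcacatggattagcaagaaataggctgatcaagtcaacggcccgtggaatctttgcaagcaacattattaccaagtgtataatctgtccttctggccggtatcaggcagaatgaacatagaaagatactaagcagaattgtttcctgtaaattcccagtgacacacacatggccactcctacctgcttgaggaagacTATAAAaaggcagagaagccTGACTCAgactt
Il1b: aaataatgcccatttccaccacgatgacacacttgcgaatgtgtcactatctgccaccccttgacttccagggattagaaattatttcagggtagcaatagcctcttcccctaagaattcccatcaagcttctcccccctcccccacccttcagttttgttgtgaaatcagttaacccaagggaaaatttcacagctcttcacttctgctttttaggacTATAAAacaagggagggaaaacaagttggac

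The motifs, each searched on both strands, were the NF-κB consensus (κB), the interferon-stimulated response element (ISRE) consensus, TGANTCA (AP-1) and TATAAA (the TATA box). Positions count the base before the start as -1. The upstream Il1rn window held an AP-1 match at -141 to -135, and the downstream one held no match. Il1a had TATAAA at -32 to -27 and an AP-1 match at -12 to -6, and Il1b had TATAAA at -31 to -26. No match in these 4 windows overlapped another. Across the 13 starts of the 8 members, κB occurred in 1 (a second start of Il1r1, at -232 to -223), AP-1 in 2, ISRE in 0 and TATAAA in 5. Across all 32851 starts of the reference, κB occurred in 3.9% of windows, AP-1 in 6.75%, ISRE in 0.146% and TATAAA in 12.4%. A match describes the letters only, no match says only that these letters are not in the window, and the data hold no binding or isoform measurement.

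Of the 8 members, 6 had enough counts to be tested and none was called, against 0.246% of all genes tested. The RNA of Il1rn, Il1r1, Il1rap and Myd88 was well measured in every sample of both groups. The genes of the agonists that IL-1Ra opposes were near the floor (Il1a) or below it (Il1b). Among the 6 tested members the largest estimated difference was in Il33, which did not pass the test. At an unadjusted p under 0.05, 2 of 6 tested members (Il1r1 and Il1rl1, both lower in PDR) stood beside 11.4% of all genes tested in either direction and 6.13% lower in PDR. DESeq2 and limma-voom also called none, with 1 member each at an unadjusted p under 0.05. This count was 1 or 3 when single samples were left out, and its members changed. Without P sample 2 they were Il33 and Il1rl1 (lower) and Il1rn (higher), and without PDR sample 1 they were Il33 and Il1r1 (lower) and Il1rap (higher).

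Il1a encodes IL-1α, an alarmin that is active as a precursor and further activated by calpain. Its estimated counts were 10, 8.11 and 6.19 in P samples 1 to 3 and 9.75, 8.11 and 3.47 in PDR samples 1 to 3. The estimated counts were low but above the floor of 3 in every sample, nearest to it in PDR sample 3. There the scaled level, taken from the rounded count, was 0.168 CPM, just under that sample's floor of 0.169 CPM. The groups overlapped, and the total over all samples was 45.63 counts. Scaled levels averaged 0.314 ± 0.0989 CPM (SD, n = 3) in P and 0.253 ± 0.0745 CPM in PDR. The filter removed Il1a from the main test. Fitted without the filter, its log2 fold change was -0.24 (SE 0.544, edgeR adjusted p = 0.916), so a modest difference was not detectable at this depth. The gene lies on chromosome 2, 129299610 to 129309972 on the minus strand (GRCm38), and overlaps Gm14023 on the other strand, with 225 identical bases and a mean count of 3.4. Whether the counting used the strand is not stated, so reads of this overlap cannot be told apart.

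Il1b encodes IL-1β, which caspase-1 cleaves into its active form. Its counts were 0, 0 and 2 in P and 0, 1 and 0 in PDR. No sample reached the floor of 3 counts, so no fold is given, and the filter removed the gene. Il1b lies on chromosome 2, 129364570 to 129371139 on the minus strand, near Il1a.

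Il33 encodes IL-33, a nuclear alarmin of epithelial and stromal cells (chromosome 19, 29925114 to 29960718, plus strand). Its counts were 80, 59 and 56 in P and 77, 39 and 22 in PDR. On the scaled level these were 3.43, 1.97 and 2.32 CPM in P and 2.37, 1.38 and 1.23 CPM in PDR. PDR samples 2 and 3 lay below every P sample, whereas PDR sample 1 lay inside the range of P, so the groups overlapped. The log2 fold change was -0.57 (SE 0.284, edgeR adjusted p = 0.491). The 95% interval ran from 0.436-fold to 1.04-fold of the P level, wide enough to hold both a halved level and no difference. Leaving out single samples moved the log2 fold change between -0.95 (without PDR sample 1) and -0.31 (without P sample 1). PDR sample 3, with the lowest Il33 level, was also the shallowest library, and without it the log2 fold change was -0.42 (edgeR adjusted p = 0.732).

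**Figure D1:**
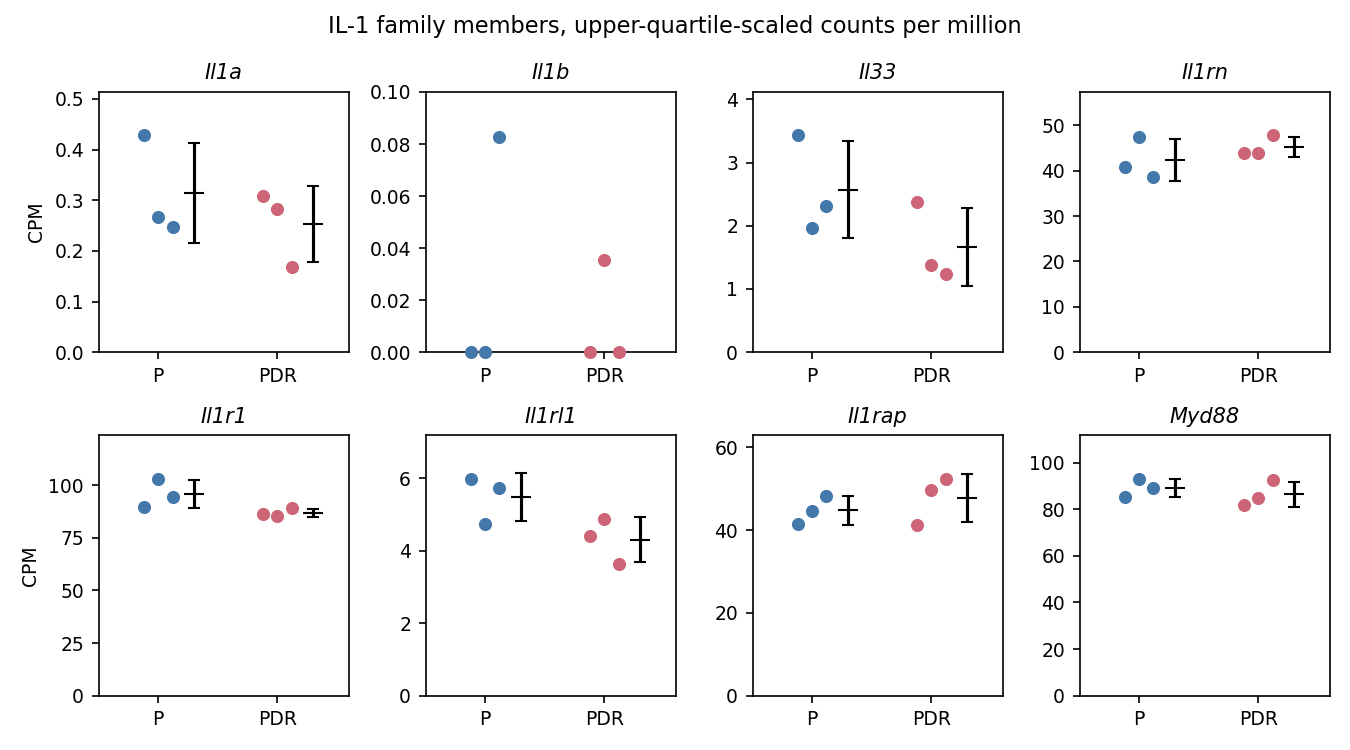
Level of each member in every sample, in upper-quartile-scaled CPM on linear axes from 0, with P in blue and PDR in red. Black marks are mean ± SD (n = 3), left out for Il1b, which had at most 2 counts in any sample. The groups overlap in all members but Il1r1, whose PDR samples (85.3 to 89.1 CPM) sit just under the P samples (89.8 to 103 CPM).

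Il1rn, the antagonist, lies on chromosome 2, 24336853 to 24351494 on the plus strand. Its counts were 956, 1423 and 934 in P and 1428, 1245 and 852 in PDR. The scaled levels were 40.9, 47.5 and 38.6 CPM in P and 44.0, 43.9 and 47.8 CPM in PDR. PDR sample 3 was the highest and P sample 2 was next to it, above the other PDR samples, so the groups overlapped. PDR stood 0.09 above P on the log2 scale (SE 0.0724, edgeR adjusted p = 0.690). The 95% interval, from 0.951-fold to 1.19-fold, leaves out a fall as large as that of Ptx3, Nfkbiz and Cxcl5 further on. It does not leave out a small change in either direction. Its upper end lies close to the 1.21-fold of Aim2, so a rise of that size was not clearly left out. Without single samples the estimate lay between 0.03 (without P sample 3) and 0.18 (without P sample 2), and no such fit called it. Gene-level counts do not separate secreted from intracellular IL-1Ra, which arise from different starts.

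The balance of antagonist and agonist at IL-1R1 was read as the ratio of Il1rn to Il1a counts within each sample, with 0.5 added to both. It was 91.1, 165 and 140 in P and 139, 145 and 215 in PDR. Il1rn counts were thus far above Il1a counts in every sample, with an exon union of 5535 bases for Il1rn and 1974 bases for Il1a. On the log2 scale the ratio averaged 7.0 ± 0.44 (SD, n = 3) in P and 7.35 ± 0.35 in PDR. The difference of 0.35 had a two-sided exact permutation p of 0.5, where 3 samples against 3 allow no p under 0.1. Il1b was too low for such a ratio.

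Il1r1, the signaling receptor for IL-1α and IL-1β, had the highest total count of the members (14278, against 13638 for Myd88, which was higher in PDR sample 3). It lies on chromosome 1, 40225080 to 40317257 on the plus strand. Its counts were 2097, 3100 and 2278 in P and 2798, 2417 and 1588 in PDR. The scaled levels were 89.8, 103 and 94.2 CPM in P and 86.3, 85.3 and 89.1 CPM in PDR. Every PDR sample lay below every P sample, by a narrow margin, and Il1r1 was the only tested member whose groups did not overlap, which also held for 17.6% of all genes tested. The log2 fold change was -0.14 (SE 0.0526, unadjusted p = 0.0199, edgeR adjusted p = 0.315), with a 95% interval of 0.835-fold to 0.981-fold. The estimate stayed between -0.18 and -0.08 when single samples were left out, and no such fit called it.

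Il1rl1 encodes ST2, both the membrane receptor of IL-33 and, from another promoter, a soluble form that captures IL-33. It lies downstream of Il1r1 and Il1rl2 on chromosome 1, 40429570 to 40465415 on the plus strand, and gene-level counts do not separate the forms. Its counts were 140, 142 and 139 in P and 143, 138 and 65 in PDR. The scaled levels were 5.99, 4.74 and 5.75 CPM in P and 4.41, 4.87 and 3.65 CPM in PDR. PDR sample 2 lay just above P sample 2, so the groups overlapped. In edgeR the log2 fold change was -0.33 (SE 0.146, unadjusted p = 0.0471, edgeR adjusted p = 0.430), with a 95% interval of 0.637-fold to 0.997-fold. Without PDR sample 3, which had the lowest level and the fewest total counts, it was -0.23 (edgeR adjusted p = 0.691).

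Il1rap, the co-receptor of both IL-1R1 and ST2, lies on chromosome 16, 26581704 to 26730117 on the plus strand. Its estimated counts were 967.15, 1336.16 and 1168.61 in P and 1338.01, 1411 and 933 in PDR. The scaled levels were 41.4, 44.6 and 48.3 CPM in P and 41.3, 49.8 and 52.4 CPM in PDR. PDR sample 1 was the lowest of all and PDR sample 3 the highest, so the groups overlapped. The log2 fold change was 0.09 (SE 0.0846, edgeR adjusted p = 0.750), with a 95% interval of 0.932-fold to 1.21-fold. Leaving out single samples moved it between 0.03 (without PDR sample 3) and 0.19 (without PDR sample 1), and no such fit called it. Its antisense neighbor Gm20319 shares 355 bases with it at a mean count of 3.01.

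The ratio of co-receptor to receptor (Il1rap to Il1r1 counts, 0.5 added to both) was 0.461, 0.431 and 0.513 in P and 0.478, 0.584 and 0.588 in PDR. PDR samples 2 and 3 lay above all P samples and PDR sample 1 lay within them. The log2 ratio averaged -1.10 ± 0.13 (SD, n = 3) in P and -0.87 ± 0.17 in PDR, a difference of 0.23 with a two-sided exact permutation p of 0.2.

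Myd88, the adaptor, lies on chromosome 9, 119335934 to 119341411 on the minus strand. Its counts were 1994, 2785 and 2155 in P and 2649, 2409 and 1646 in PDR. The scaled levels were 85.4, 93.0 and 89.1 CPM in P and 81.7, 85.0 and 92.4 CPM in PDR, and the groups overlapped. In edgeR the estimate was -0.05 on the log2 scale (SE 0.0523, edgeR adjusted p = 0.763), with a 95% interval of 0.891-fold to 1.05-fold. Leaving out single samples gave -0.09 (without PDR sample 3) to -0.01 (without PDR sample 1). Myd88 shares 224 bases with Acaa1a on the other strand (mean count 452.04), whose reads cannot be told apart there if strand was not used.

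**Figure D2:**
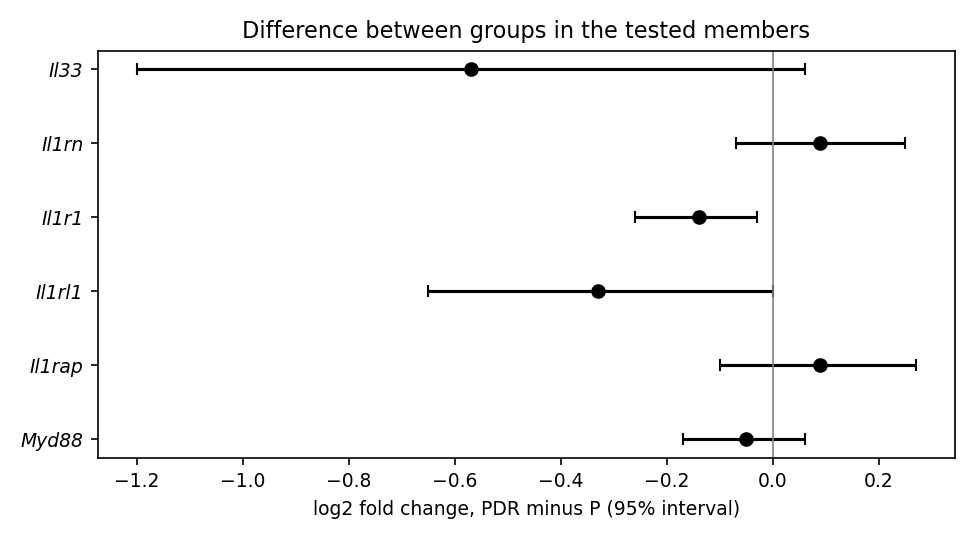
Log2 fold change (PDR minus P) of the 6 tested members from edgeR, with 95% intervals. The intervals of Il1rn, Il1rap and Myd88 are narrow and span 0, that of Il33 is the widest (-1.20 to 0.06), and those of Il1r1 and Il1rl1 end just below 0, although neither passed the adjusted threshold.

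To compare levels between genes, CPM were divided by the length of the exon union in kb and averaged over the 6 samples. Myd88 was highest at 34.1 CPM per kb, followed by Il1r1 at 14.4, Il1rn at 7.91 and Il1rap at 4.08. Il33 at 0.733 and Il1rl1 at 0.711 came next, and their ranges over the samples overlapped (0.428 to 1.19 and 0.529 to 0.869). Il1a at 0.144 and Il1b at 0.0103 came last. All other neighbors in this order had ranges that did not overlap. The RNA of Il33 and of Il1rl1, whose membrane and soluble forms were not separated, was therefore at a similar low level. The RNA of Il1r1 stood far above that of Il1a and Il1b. With the length of the longest transcript instead, Il1rn (17.2 CPM per kb) moved ahead of Il1r1 (15.7) with overlapping ranges, and Il1rl1 (0.924) ahead of Il33 (0.832), while the other 4 members kept their rank.

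Il1r1 and Il1rl1 lie in a row of receptor genes on chromosome 1, and neighbors in that row had very different levels. The decoy receptor Il1r2, which binds IL-1 without signaling, was at 0.287 CPM per kb, and the IL-36 receptor Il1rl2 was at 0.691. The IL-18 receptor was split: the ligand-binding chain Il18r1 was at 0.0372 CPM per kb and its co-receptor Il18rap at 11.9. Sigirr, a receptor that restrains IL-1 signaling, was at 14 CPM per kb. Of 7 further receptors and decoys, 4 were tested, none was called, and the groups overlapped in each. Among 7 further ligands and binding proteins, Il18 (11.3 CPM per kb) and the IL-18 binding protein Il18bp (0.944) were tested and not called. Il36b, Il36rn and Il1f10 were at 0 in every sample, and Il36a and Il36g were below the floor on average. Il1r2, Il1rl2, Il18r1 and the ligands at or near 0 were named after their values had been seen.

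**Figure D3:**
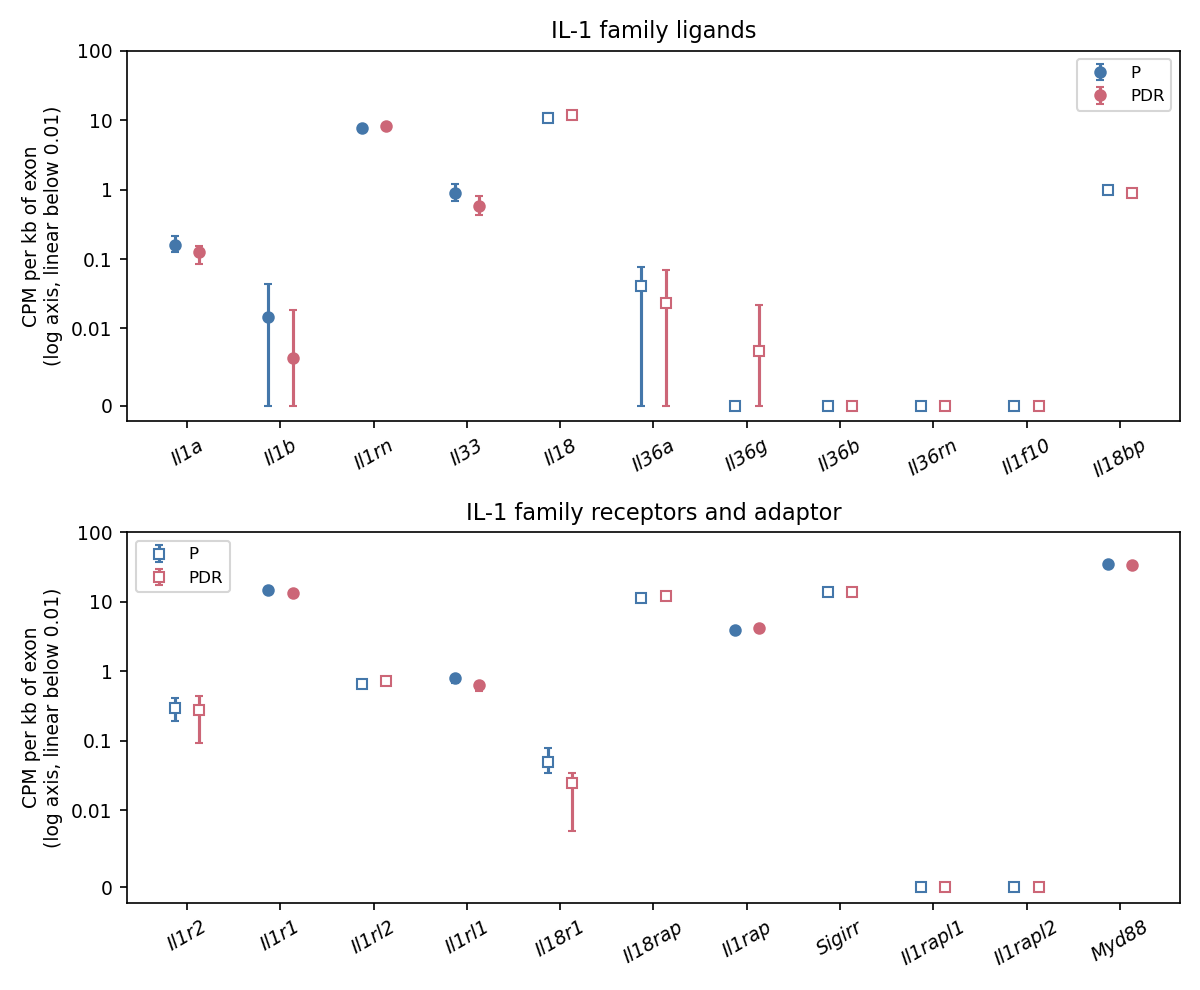
Levels of the IL-1 family in CPM per kb of exon union on a log axis that is linear below 0.01. Circles are the members and squares the other family genes, each the mean of 3 samples with a bar from the lowest to the highest sample, P in blue and PDR in red. Il1r1, Il1rn and Myd88 sit near or above 10, whereas Il1a (0.144) and Il1b (0.0103) sit far below.

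Agonist release was described by 14 genes, of which 10 were tested. Aim2, a sensor of cytosolic DNA that assembles an inflammasome, was higher in PDR. Its level was 100, 96.9 and 101 CPM in P and 116, 119 and 125 CPM in PDR, so the groups did not overlap. Its log2 fold change was 0.28 (SE 0.0411, edgeR adjusted p = 0.0224), beside 0.0985% of all genes called higher. Of the 6 fits that left out a single sample, 4 lost the call (without P sample 1, P sample 3, PDR sample 2 or PDR sample 3), and the edgeR adjusted p ran from 0.0249 to 0.156 over all 6. Casp1, the protease that cleaves IL-1β, averaged 68.0 CPM in P and 69.2 CPM in PDR (edgeR adjusted p = 0.881). Pycard, the adaptor that joins AIM2 to caspase-1, had a mean count of 1.00 and was not tested. The catalytic calpains Capn2 and Capn1 had groups that did not overlap, higher in PDR for Capn2 and lower for Capn1, as had 17.6% of all genes tested in either direction. Capn2 stood at 0.09 on the log2 scale (unadjusted p = 0.0212, edgeR adjusted p = 0.323) and Capn1 at -0.07 (edgeR adjusted p = 0.552). The shared subunit Capns1 was at 0.00. Casp1, Pycard and Capn1 were named after their values had been seen.

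Of 19 proteins that carry or restrain the signal from MyD88 to NF-κB, 17 were tested and none was called. Ube2n, the ubiquitin-conjugating enzyme that works with TRAF6, had a log2 fold change of 0.10 (unadjusted p = 0.0122, edgeR adjusted p = 0.281). The 2 most abundant, Sqstm1 (1110 CPM in P, 1140 CPM in PDR) and Tab2 (216 and 218 CPM), had log2 fold changes of 0.04 and 0.02. The median over this list was 0.012, beside -0.00397 over all genes tested.

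Among 14 Toll-like receptors and adaptors, many of which signal through MyD88 as the IL-1 receptors do, 9 were tested and none was called. At an unadjusted p under 0.05, 3 of the 9 were lower in PDR and none higher, beside 6.13% of all genes tested that were lower. The list was chosen with earlier results of these data known, so this share is a description only. Tlr2, a receptor of bacterial lipoproteins, averaged 36.4 ± 2.55 CPM (SD, n = 3) in P and 31.7 ± 1.44 CPM in PDR (edgeR adjusted p = 0.275). Cd14, a co-receptor of Tlr2 and Tlr4, averaged 14 ± 1.02 and 12.1 ± 0.805 CPM (edgeR adjusted p = 0.348). Tlr3, which signals without MyD88, averaged 14.7 ± 1.08 and 12.9 ± 0.599 CPM (edgeR adjusted p = 0.408). The adaptor Tirap, among the most abundant of the list, had a log2 fold change of -0.04.

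Among 24 genes that IL-1 is known to induce, 22 were tested, 3 fell and none rose. Ptx3, Nfkbiz and Cxcl5 fell to between 0.761-fold and 0.779-fold of the P level, beside 0.148% of all genes called lower. At an unadjusted p under 0.05, 9 of 22 were lower and 0 higher, beside 6.13% of all genes tested that were lower at that p. The log2 fold change was below 0 for 16 of the 22, beside 51.5% of all genes tested, with a median of -0.11. NF-κB and other inputs induce these genes too, so the list does not isolate IL-1. It was also chosen with earlier results of these data known, so these shares are a description and not a test.

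Ptx3, a soluble pattern recognition protein, was at 599, 657 and 599 CPM in P and 456, 494 and 497 CPM in PDR. Nfkbiz, which encodes the NF-κB cofactor IκBζ, was at 68.5, 78.6 and 72.6 CPM in P and 55.3, 55.1 and 57.2 CPM in PDR. Cxcl5, a neutrophil chemokine, was at 226, 221 and 210 CPM in P and 158, 181 and 172 CPM in PDR. In all 3 genes every PDR sample lay below every P sample. These genes were picked by their call in the same samples, so this separation adds no support. Over all genes tested, the groups did not overlap in 17.6%, in either direction.

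The log2 fold changes were -0.36 for Ptx3 (SE 0.0463, edgeR adjusted p = 0.0148), -0.39 for Nfkbiz (SE 0.0527, edgeR adjusted p = 0.0148) and -0.37 for Cxcl5 (SE 0.0511, edgeR adjusted p = 0.0180). Each was called in 3 of the 6 fits that left out a single sample, with an edgeR adjusted p of at most 0.0792 (Ptx3), 0.156 (Nfkbiz) and 0.085 (Cxcl5). The most abundant genes of the list did not pass: Ptgs2, which encodes cyclooxygenase-2, averaged 2490 ± 151 CPM (SD, n = 3) in P and 2330 ± 74.9 CPM in PDR (edgeR adjusted p = 0.427), and Lcn2, a neutrophil-associated lipocalin, 1260 ± 55.8 and 1330 ± 40.8 CPM (edgeR adjusted p = 0.490). Ptgs2 and Lcn2 were abundant in both groups while Il1a and Il1b were near or below the floor. Other genes of the list were low, such as Icam1 (1.64 CPM in P, 1.12 CPM in PDR). What sets these levels was not tested.

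Over all pathway lists, chosen with earlier results of these data known, 4 of 64 tested genes were called, beside 0.246% of all genes tested. This count changed when single samples were left out. It was 0 without P sample 3 or without PDR sample 3, 1 without PDR sample 2 and 2 without P sample 1. The sign of the difference in Ptx3, Nfkbiz, Cxcl5 and Aim2 was the same in each of those fits. Without single samples the log2 fold change lay between -0.38 and -0.31 for Ptx3 and between -0.43 and -0.34 for Nfkbiz. It lay between -0.41 and -0.31 for Cxcl5 and between 0.25 and 0.30 for Aim2. Of the epithelial markers Krt18 and Epcam, and of the mesenchymal markers Fn1, had groups that did not overlap without being called, whereas the groups of Krt8, Krt19 and Vim overlapped. Over all genes tested, 17.6% had groups that did not overlap. Krt18 averaged 489 CPM in P and 549 CPM in PDR (edgeR adjusted p = 0.139), Epcam 1.59 and 2.24 CPM (edgeR adjusted p = 0.392) and Fn1 6640 and 5870 CPM (edgeR adjusted p = 0.208), and their part in the differences above was not tested.

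**Figure D4:**
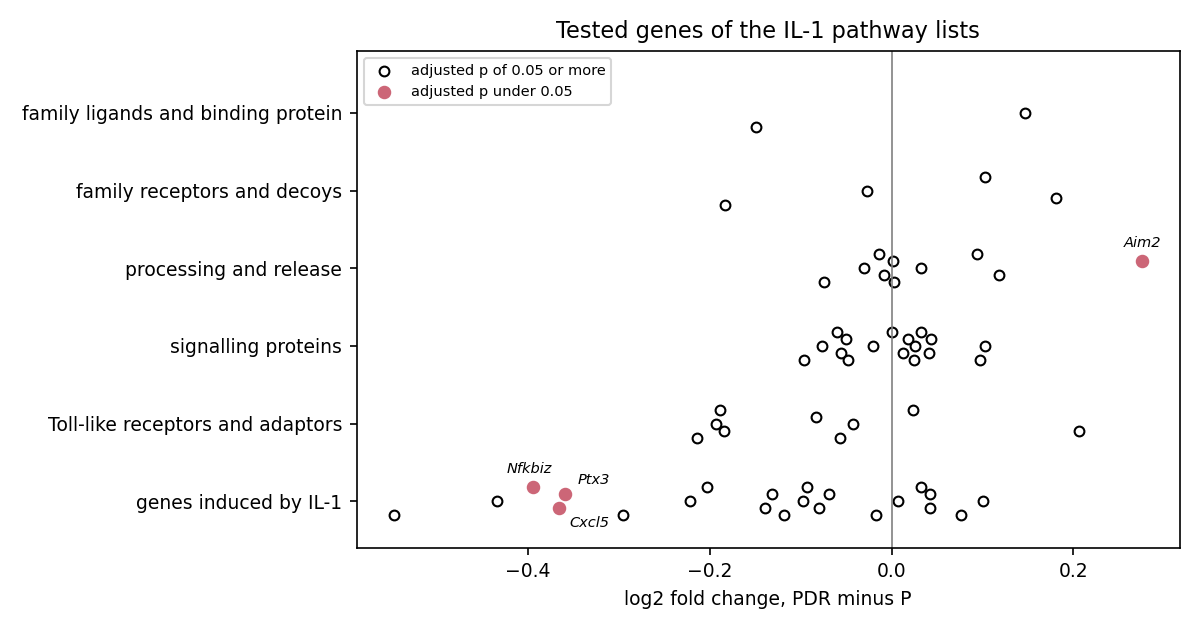
Log2 fold change (PDR minus P) of the 64 tested genes of the pathway lists, each point a gene and each row a list, with vertical offsets only to separate points. Filled points passed the adjusted threshold: Aim2 at 0.28, and Nfkbiz, Cxcl5 and Ptx3 between -0.39 and -0.36.

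**Figure D5:**
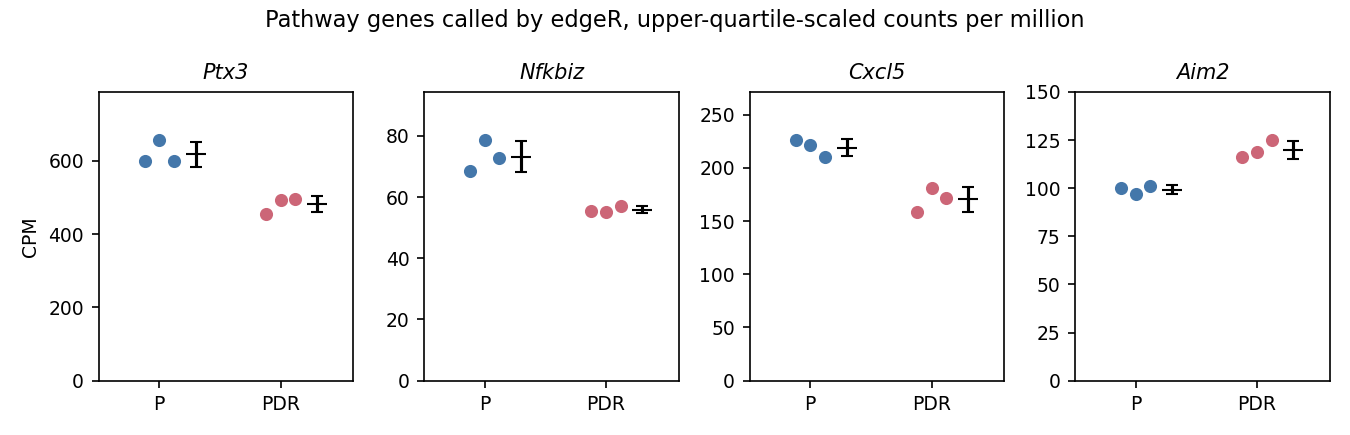
Level of the 4 called pathway genes in every sample, in upper-quartile-scaled CPM on linear axes from 0, with mean ± SD (n = 3) in black. The PDR samples lie below all P samples in Ptx3, Nfkbiz and Cxcl5 and above them in Aim2 (116 to 125 against 96.9 to 101 CPM). The genes were picked by their call in these samples, and 17.6% of all genes tested had groups that did not overlap.

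The members' patterns over the 6 samples were also described by Pearson correlation of log2 CPM, with no test, since the samples share the group difference and the library scaling. Il33 and Il1rl1, ligand and receptor, varied alike (r = 0.76), as did Il1r1 and Myd88 (r = 0.72). Il1rn ran opposite to Il1rl1 (r = -0.84) and Il33 opposite to Il1rap (r = -0.85). Among 11804 tested genes with a mean count of at least 50, the patterns most like that of Il1rn were those of Lgals8 (r = 0.988), Tnfaip8 (r = 0.987) and Elovl7 (r = 0.985). Those most like Il1r1 were Brf2 (r = 0.987), Ddhd1 (r = 0.978) and Rnf19b (r = 0.976). With so many genes and 6 samples, coefficients of this size say nothing of a shared role.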

How the data were processed

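RNA was measured in 6 samples of EMT6 cells with a stranded mRNA library kit. According to the submitters' processing notes and the study's methods, reads were checked with FastQC 0.11.5, aligned with STAR 2.6.0a to GRCm38 and quantified with RSEM 1.3.1. The deposited table holds the estimated counts per gene that the authors obtained, not scaled between samples, of which 12.5% to 13.8% per sample were not whole. Counts were rounded, filtered with filterByExpr (minimum count 10, minimum total 15) and scaled by the upper quartile. P and PDR were compared by the edgeR quasi-likelihood test (version 4.0.16, R 4.3.3). The model held the group alone, with Benjamini-Hochberg adjustment over all 14217 tested genes. Standard errors were derived from the F statistic. Ratios were compared by exact permutation. Depth ran from 17757341 to 32426739 counts per sample, and floors cover counting error only.

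Symbols were found for 53274 of 53465 identifiers, and coordinates come from an annotation of the same build (GENCODE, GRCm38). All 13 upstream windows of the members come from RefSeq (GRCm38.p6). The κB and ISRE consensus sequences replaced shorter patterns after these had been searched. Copies were searched at 95% identity over at least 200 bases. The members and gene lists were chosen with earlier results of these data known. Named genes are all members and, per list, genes with an adjusted p under 0.05, up to 3 with an unadjusted p under 0.05 and the 2 most abundant tested. Marker genes and the genes so marked in the text were named besides. Alternatives were DESeq2 1.42.0, limma-voom (limma 3.58.1), TMM or no scaling, no filter, at least 10 counts in every sample, a replicate block, leaving out each sample, a pseudocount of 5 for the ratios and the longest transcript as length. The edgeR steps were tested on simulated data.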

Additional observations from a re-analysis of the deposited data

How the results depend on the processing

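No member was called under any of the 7 other settings or without any single sample, and the sign of every tested member was kept in all of these fits. Of the pathway genes, 4 were called, against 5 with DESeq2, without the filter and under the strict filter (10 counts in every sample), and between 0 and 4 when single samples were left out. Ptx3, Nfkbiz and Cxcl5 were each called in 3 of these 6 fits and Aim2 in 2. Capns1, with a log2 fold change near 0, turned to -0.0029 under the strict filter, and without single samples it lay between -0.0034 and 0.0117 (-0.0019 without P sample 3). The cause was not tested.

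Same-numbered samples did not pair: the correlations of their deviations were 0.109, 0.095 and -0.0556. With the replicate block, 0 members and 5 pathway genes were called, the Il1rn to Il1a ratio differed by 0.35 (exact p = 0.5) and the Il1rap to Il1r1 ratio by 0.23, higher in PDR in all 3 pairs (exact p = 0.25, the smallest that 3 pairs allow).

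With a pseudocount of 5 the Il1rn to Il1a difference was 0.23, and without single samples it lay between 0.10 and 0.53. The Il1rap to Il1r1 difference lay between 0.17 and 0.33. With the longest transcript as length, 4 of the 8 members kept their rank. Depth limits Il1a and Il1b, which were fitted only without the filter and then not called. The log2 fold change of Il1a was -0.24 (SE 0.544), and none is given for Il1b, which was below the floor in every sample.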
